A study of Mus musculus with 8 samples.

Results

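The genes described here are 10 genes of the unfolded protein response and of the Perk and Atf5 feedback signal of olfactory receptor choice, chosen by name out of 22553 genes in the deposited table. They are Atf5, Atf4, Atf3, Eif2ak3, Ppp1r15a, Ddit3, Trib3, Xbp1, Hspa5 and Psat1, and all 10 were found and passed the filter on low counts in each comparison below. Ribosome footprints, the stretches of mRNA held by translating ribosomes, and input RNA were counted over coding sequences in cells sorted from the mouse main olfactory epithelium. Ngn1-GFP positive cells are immediate neuronal progenitors and immature olfactory sensory neurons, marked by a GFP transgene, and OMP-GFP positive cells are mature sensory neurons, marked by an OMP-ires-GFP knock-in allele. Controls carried Mex3a fl/fl or Mex3a fl/+ with the respective GFP allele and no Cre. The KO mice carried Mex3a fl/fl with a Cre driver and the same GFP allele, although the genotype tag of the OMP-GFP deletion reads OMP-ires-Cre where its description reads OMP-ires-GFP. All mice were untreated, and neither their age nor any pooling of animals is stated in the labels.

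The 8 footprint libraries form 4 groups of 2, but the table gives a single footprint column and a single RNA column for each group. The counts, RPKM and TPM below are the authors' figures for each group, and the CPM, ratios and intervals were computed from those counts. The spread between replicates is therefore unknown and no difference was tested. Where 4 values are given in a row, the first pair is the Ngn1-GFP sort (control, then KO) and the second pair the OMP-GFP sort (control, then KO). Totals were 3031489 to 4456989 footprints and 26946592 to 89327877 RNA reads per column. Brackets hold 95% counting intervals, which cover counting error only. PCR copies were not separated by molecular identifiers, so the intervals can be too narrow even for that error. Mex3a itself had 437 footprints in the Ngn1-GFP control and 28 in its KO, and 16 and 5 in the OMP-GFP columns. Mature neuron markers such as Omp and Cnga2 summed to 12693 and 14674 footprint CPM (CPM are counts scaled to the column's total, here after TMM scaling, which aligns the columns on the bulk of genes) in the Ngn1-GFP control and KO. In the OMP-GFP control and KO they summed to 23257 and 27077, and none of the 10 markers was at 0. Precursor markers summed to 2233 and 2615 in the Ngn1-GFP columns and to 1061 and 996 in the OMP-GFP columns. Gene by gene the gap was wider than in these sums. Of 9 tested precursor markers, 8 had at least 2-fold lower footprints in OMP-GFP cells in each genotype, where 17.4% and 18.4% of all genes did. The median log2 ratios of OMP-GFP over Ngn1-GFP were -3.42 in controls and -3.38 in KO mice. Immature neuron markers such as Gap43 summed to 8846, 10818, 8269 and 8611 footprint CPM, with 1 of 10 at 0 in the OMP-GFP control. Of these 10, 4 had at least 2-fold lower footprints in OMP-GFP cells in each genotype, and 2 had ratios above 0. Mature and immature markers were thus both present in each sort.

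Other cells differed between the sorts. Markers of sustentacular cells, the supporting cells of the epithelium, summed to 5374, 662, 172 and 620 footprint CPM, and none of the 10 was at 0 in any column. Nasal gland markers summed to 404, 835, 79.0 and 574 in the same order, with 1 or 2 of 10 at 0 in each column (Bpifb5, Obp1b or both). The RNA of both lists is given beside the comparisons below. The RNA column of the Ngn1-GFP control also stood apart: 377 genes were at least 8-fold above each of the other RNA columns there, against 11, 1 and 5 in the other columns, and they held 4.86% of its reads. Its footprint column did so to a lesser extent, with 63 such genes against 18, 0 and 2, which held 0.591% of its footprints. Among the members, Psat1, Atf3, Eif2ak3 and Xbp1 had their highest footprint CPM in that column. Since the stress genes are used by every cell type, fewer cells of a type and less RNA per cell cannot be told apart in these columns.

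The unfolded protein response senses misfolded protein in the endoplasmic reticulum (ER) through the kinase Perk (gene Eif2ak3), the kinase and nuclease Ire1 and the membrane-bound factor Atf6. Perk phosphorylates the initiation factor eIF2, which lowers translation of most mRNAs while mRNAs with inhibitory upstream reading frames, such as those of Atf4, Atf5, Ddit3 and Ppp1r15a, escape or gain. In olfactory neurons, expression of a receptor engages Perk and thereby translation of Atf5, a signal that stabilises receptor choice and is relieved once the cell makes the adenylyl cyclase Adcy3. Mex3a is an RNA-binding ubiquitin ligase, and the study's title names its question as silencing after transcription and the diversity of olfactory receptors.

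Promoters are shown for the members whose 250 bases before the annotated start held a stress-response element, to give the letters these factors read. The windows are from RefSeq on GRCm38.p6, and all 10 members had one (12 windows, as Atf5 and Psat1 have 2 each). Capitals mark the element: in Hspa5 the ER stress element at positions -65 to -47 from the start, in Atf3 the C/EBP-ATF element on the reverse strand at -110 to -103, and in Ppp1r15a the palindromic cAMP response element at -12 to -5.
Hspa5, chr2:34771840-34772089, + strand: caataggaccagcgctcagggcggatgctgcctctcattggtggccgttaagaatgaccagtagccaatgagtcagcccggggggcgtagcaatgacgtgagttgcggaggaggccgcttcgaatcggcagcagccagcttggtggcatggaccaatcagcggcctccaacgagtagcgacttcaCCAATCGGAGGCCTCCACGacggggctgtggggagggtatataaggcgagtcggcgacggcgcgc
Atf3, chr1:191183334-191183583, - strand: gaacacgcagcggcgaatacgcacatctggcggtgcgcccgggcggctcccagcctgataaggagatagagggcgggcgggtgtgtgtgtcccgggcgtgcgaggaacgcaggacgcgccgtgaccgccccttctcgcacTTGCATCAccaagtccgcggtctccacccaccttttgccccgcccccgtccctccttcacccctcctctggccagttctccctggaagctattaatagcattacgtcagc
Ppp1r15a, chr7:45526269-45526518, - strand: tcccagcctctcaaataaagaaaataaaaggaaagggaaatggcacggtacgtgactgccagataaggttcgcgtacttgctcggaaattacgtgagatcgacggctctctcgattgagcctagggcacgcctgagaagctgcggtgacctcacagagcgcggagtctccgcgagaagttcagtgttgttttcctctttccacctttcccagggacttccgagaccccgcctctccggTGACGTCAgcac
The letters searched, on both strands, were CCAAT, 9 unspecified bases and CCACG for the ER stress element, TGATGNAA for the C/EBP-ATF element, TGACGTGG for the Xbp1 element and TGACGTCA for the cAMP response element. They occurred in 0.113%, 3.45%, 0.563% and 1.55% of 32851 windows of the same length over all genes. No found element overlapped one of another kind. The windows of Atf5, Atf4, Eif2ak3, Ddit3, Trib3, Xbp1 and Psat1 held none of these letters. A match describes the sequence and shows no binding.

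Atf5, a bZIP transcription factor that carries the feedback signal, was among the most abundant coding mRNAs of all 4 columns. The gene lies on chromosome 7, 44812256 to 44816658, with a coding length of 852 bases in the deposited table. Per length, its RNA stood at 1869, 2880, 3043 and 3502 TPM, ranks 38, 16, 15 and 13 among all genes. Its footprints stood at 1529, 2272, 994 and 1388 RPKM, ranks 42, 21, 93 and 59. It was the first of the 10 members on both scales in each column. Within each genotype, its RNA level was higher in OMP-GFP cells and its footprint level was higher in Ngn1-GFP cells.

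Atf5 footprints were higher in both KO columns. They numbered 5806 in the Ngn1-GFP control and 5869 in its KO, or 1180 and 1836 CPM, a log2 ratio of 0.64 [0.59, 0.69] and 1.56-fold. In OMP-GFP cells they numbered 3028 and 4848, or 890 and 1311 CPM, a log2 ratio of 0.56 [0.49, 0.63] and 1.47-fold. Neither reached the 2-fold used here to count a gene as higher or lower. The difference between both effects was -0.08 [-0.16, 0.00]. For genes averaging 1000 or more footprints, the middle 90% of KO ratios ran from -0.31 to 0.56 in Ngn1-GFP cells (645 genes) and from -0.44 to 0.61 in OMP-GFP cells (665 genes), so the Atf5 ratio lay just above that range in the first and within it in the second. Atf5 RNA was higher by less, with ratios of 0.39 [0.37, 0.41] and 0.25 [0.23, 0.26], and footprints per RNA read were higher by 0.25 [0.19, 0.30] and 0.31 [0.25, 0.38].

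Atf4, the bZIP factor that drives amino acid and stress genes, had the same footprint direction without a difference in RNA. It had 390, 366, 179 and 275 footprints, or 79.2, 114, 52.6 and 74.3 CPM. The footprint ratios were 0.53 [0.32, 0.74] and 0.50 [0.22, 0.78], both within the middle 90% of genes with 100 to 1000 footprints (-0.78 to 0.70 and -0.74 to 0.77). Its RNA stood at 529, 531, 554 and 545 CPM in the 4 columns, with KO ratios of 0.00 [-0.02, 0.03] and -0.02 [-0.06, 0.01]. Footprints per Atf4 RNA read were thus higher by 0.53 [0.32, 0.73] in the Ngn1-GFP KO and by 0.52 [0.25, 0.80] in the OMP-GFP KO. Like Atf5, Atf4 had its highest footprint level in the Ngn1-GFP KO and its lowest in the OMP-GFP control.

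**Figure D1:**
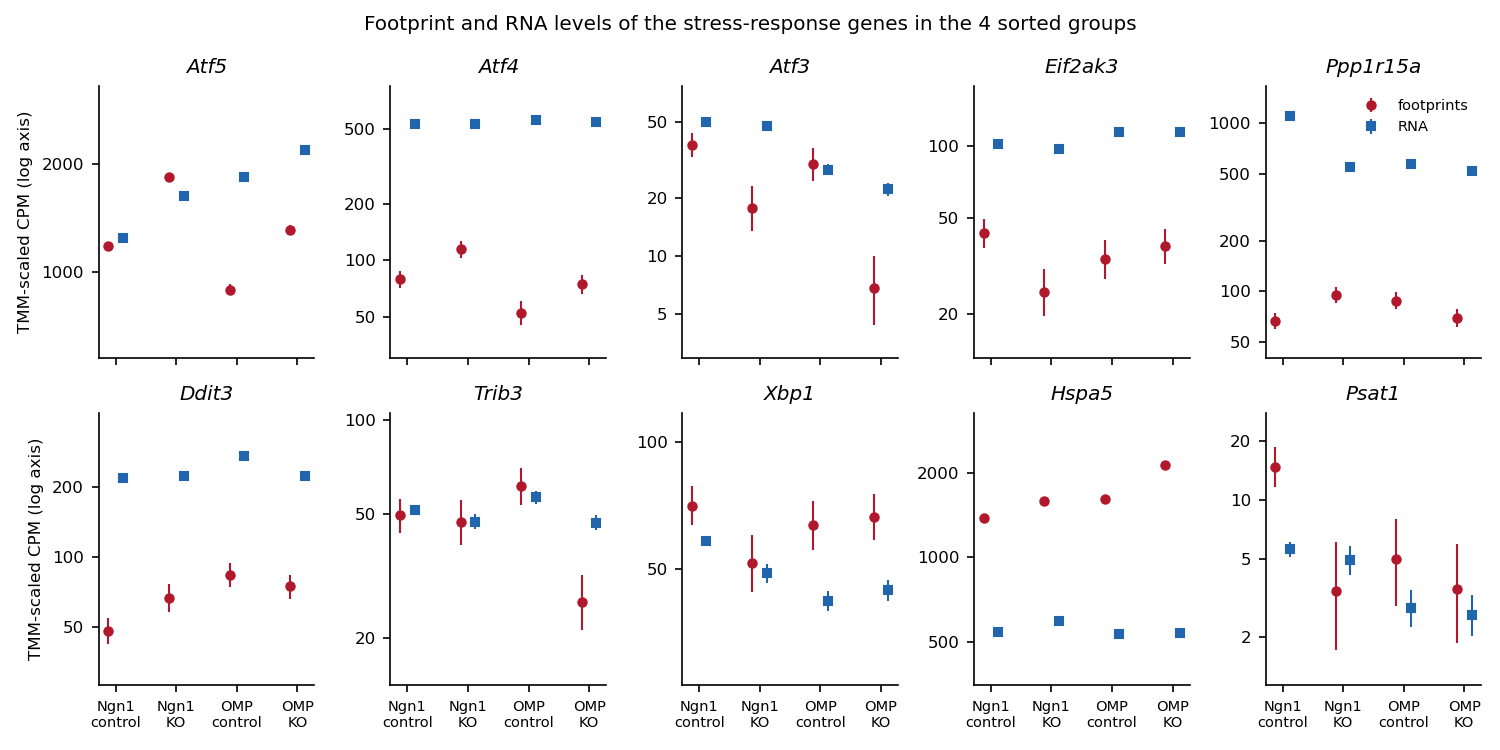
TMM-scaled CPM (log axis, a range of its own in each panel) of footprints (circles) and RNA (squares) for the 10 genes in the 4 columns, with exact Poisson 95% intervals that cover counting error only. Atf5 and Atf4 footprints are highest in the Ngn1-GFP KO column, at 1836 and 114 CPM, and Ppp1r15a RNA is highest in the Ngn1-GFP control, at 1097 CPM.

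Eif2ak3 encodes Perk, the ER stress kinase upstream of both factors. Its footprints numbered 213, 79, 115 and 142, which is 43.3, 24.7, 33.8 and 38.4 CPM. The KO ratio was -0.81 [-1.20, -0.43] in Ngn1-GFP cells, 1.75-fold lower and just below the middle 90% of genes of like depth. In OMP-GFP cells it was 0.18 [-0.18, 0.55]. The difference between effects was 0.99 [0.48, 1.51]. It lay within the middle 90% of such differences over all genes (-1.66 to 1.89), a range not matched for depth. Eif2ak3 RNA, at 97.2 to 114 CPM in the 4 columns, had KO ratios of -0.08 [-0.14, -0.02] and 0.00 [-0.07, 0.07]. Footprints of the kinase and of the factors translated downstream of it therefore lay on opposite sides of 0 in the Ngn1-GFP comparison.

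Ppp1r15a encodes Gadd34, which brings a phosphatase to eIF2 and reverses the Perk signal. Its footprints numbered 329, 304, 299 and 257, or 66.8, 95.1, 87.8 and 69.5 CPM. The KO ratio was 0.51 [0.28, 0.74] in Ngn1-GFP and -0.34 [-0.58, -0.09] in OMP-GFP cells. Both lay within the middle 90% of genes with 100 to 1000 footprints (-0.78 to 0.70 and -0.74 to 0.77). Its RNA stood at 1097 CPM in the Ngn1-GFP control and at 545, 571 and 520 CPM in the other columns in that order. The RNA ratio of -1.01 [-1.03, -0.99] in the Ngn1-GFP KO and the footprint per RNA ratio of 1.52 [1.29, 1.75] both rest on that 1 control RNA column, which stood apart. For genes averaging 1000 or more RNA reads the middle 90% of these RNA ratios ran from -1.03 to 0.37, so the value lay within that range. Without the TMM scaling, by library size alone, the RNA ratio was -0.96 and no longer 2-fold.

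Ddit3 encodes Chop, the bZIP factor of prolonged ER stress, and Trib3 a pseudokinase that Chop and Atf4 induce. Ddit3 footprints numbered 237, 213, 284 and 276 (48.1, 66.6, 83.4 and 74.6 CPM), with KO ratios of 0.47 [0.19, 0.74] and -0.16 [-0.41, 0.08]. Ddit3 RNA ratios were 0.04 [-0.005, 0.08] and -0.29 [-0.34, -0.24]. Trib3 footprints numbered 244, 151, 210 and 97, or 49.6, 47.2, 61.7 and 26.2 CPM. The ratio was -0.07 [-0.37, 0.23] in Ngn1-GFP cells and -1.23 [-1.60, -0.88], 2.35-fold lower, in OMP-GFP cells, the latter outside the middle 90% of genes with 100 to 1000 footprints (-0.74 to 0.77). Trib3 RNA was lower by much less there (-0.27 [-0.38, -0.17]). The difference between the footprint effects was -1.16 [-1.62, -0.71]. It lay within the middle 90% of such differences over all genes (-1.66 to 1.89), a range not matched for depth.

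Atf3, a bZIP factor that is induced quickly by stress and by neuronal activity, had lower footprints in both KO columns. They numbered 187, 57, 103 and 25, or 38.0, 17.8, 30.3 and 6.76 CPM. The footprint ratios were -1.09 [-1.55, -0.66] and -2.16 [-2.86, -1.52], 2.13-fold and 4.48-fold lower. The RNA ratios were -0.07 [-0.16, 0.02] and -0.34 [-0.49, -0.19], which left footprints per RNA read lower by 1.02 and 1.82 on the log2 scale (-1.02 [-1.46, -0.59] and -1.82 [-2.47, -1.17]). Over all genes the middle 90% of these ratios per RNA read ran from -1.62 to 1.38 and from -1.46 to 1.28. The Ngn1-GFP value lay within that range and the OMP-GFP value, on 25 KO footprints, below it. Both footprint ratios lay below the middle 90% of genes of like depth, which ended at -0.78 for 100 to 1000 footprints in Ngn1-GFP cells and at -1.93 for 10 to 100 in OMP-GFP cells. Atf3 was the sole member with at least 2-fold lower footprints in both populations.

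Psat1 encodes an enzyme of serine synthesis and is an Atf4 target, and it was the rarest member. It had 73, 11, 17 and 13 footprints (14.8, 3.44, 4.99 and 3.51 CPM). The ratio of -2.11 [-3.17, -1.18] in the Ngn1-GFP KO rests on 11 footprints, and ratios of this depth ranged widely, since the middle 90% of genes with 10 to 100 footprints ran from -2.48 to 1.70. In the OMP-GFP KO the ratio was -0.51 [-1.67, 0.62]. Psat1 RNA stood at 5.63, 4.94, 2.82 and 2.61 CPM, with KO ratios of -0.19 [-0.46, 0.08] and -0.11 [-0.59, 0.36]. The level in the Ngn1-GFP control was the highest of the 4 on both scales.

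Xbp1 encodes the factor that Ire1 splicing turns on, and Hspa5 encodes BiP, the main ER chaperone. Xbp1 footprints numbered 348, 165, 216 and 246 (70.7, 51.6, 63.5 and 66.5 CPM). The KO ratios were -0.45 [-0.73, -0.18] and 0.07 [-0.20, 0.34], and the RNA ratios -0.26 [-0.34, -0.17] and 0.09 [-0.03, 0.20]. Counts over the coding sequence do not tell spliced from unspliced Xbp1. Hspa5 footprints numbered 6834, 5099, 5488 and 7953, or 1388, 1595, 1612 and 2150 CPM. They were higher by 0.20 [0.15, 0.25] in the Ngn1-GFP KO and by 0.42 [0.37, 0.47] in the OMP-GFP KO, with RNA ratios of 0.13 [0.10, 0.15] and 0.01 [-0.02, 0.04]. Both Hspa5 footprint ratios lay within the middle 90% of genes of like depth.

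**Figure D2:**
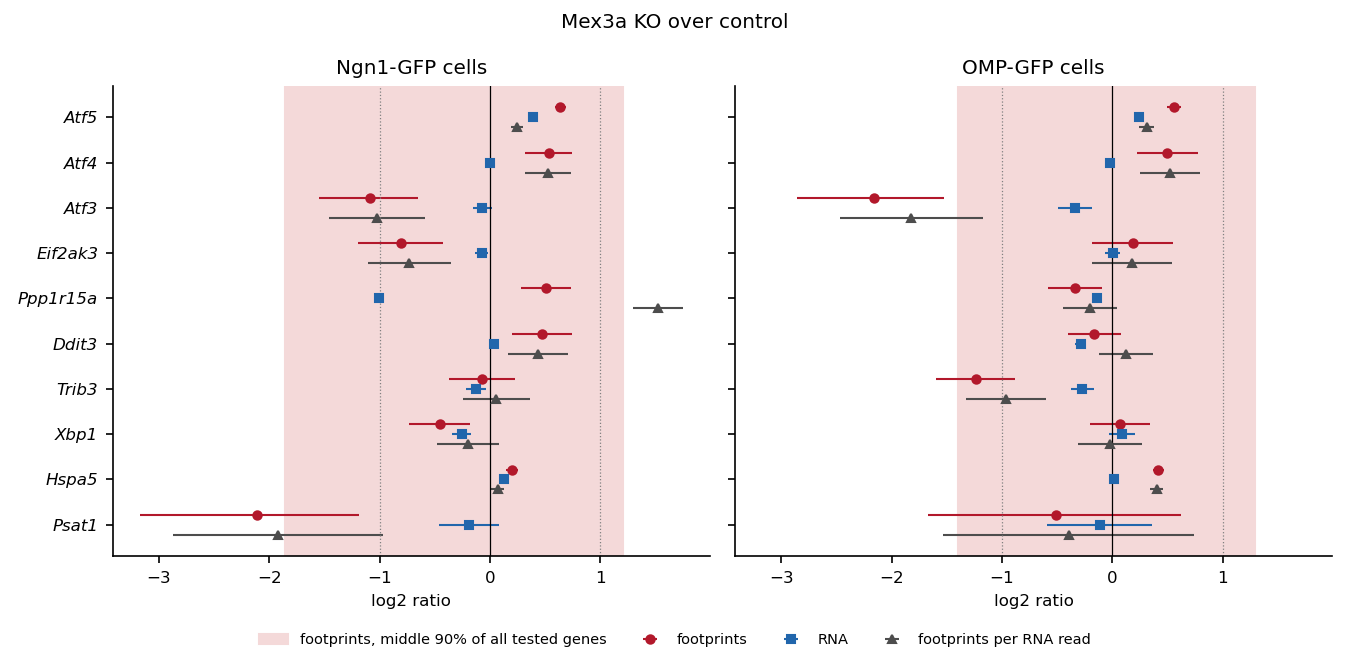
Log2 ratios of Mex3a KO over control for the 10 genes in Ngn1-GFP (left) and OMP-GFP cells (right): footprints (circles), RNA (squares) and footprints per RNA read (triangles) with 95% counting intervals, dotted lines at 2-fold, and a band for the middle 90% of footprint ratios of all tested genes. Atf5 and Atf4 footprints lie to the right of 0 in both panels (0.50 to 0.64), and Atf3 lies to the left in both (-1.09 and -2.16).

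Across the 10 members, footprints were at least 2-fold lower with an interval that excluded 1 for 2 genes in the Ngn1-GFP KO (Psat1 and Atf3) and for 2 in the OMP-GFP KO (Atf3 and Trib3), and for none were they 2-fold higher. Over all tested genes, 17.3% and 15.7% were counted in either direction (10.8% and 8.54% lower, 6.49% and 7.12% higher). The members' share lies near that of all genes and is no result about them as a group. The share of all genes depended on depth. In Ngn1-GFP and OMP-GFP cells it was 31.6% and 28.1% at 10 to 100 footprints, and 4.16% and 4.41% at 100 to 1000. Psat1 in the first comparison and Atf3 in the second averaged 10 to 100. Atf3 in the first and Trib3 in the second averaged 100 to 1000. The median footprint ratio of the members was 0.06 in Ngn1-GFP and -0.05 in OMP-GFP cells, against -0.002 and 0.004 over all genes. For RNA, 1 member was counted in the Ngn1-GFP KO (Ppp1r15a) and 0 in the OMP-GFP KO, where 15.7% (4.49% higher, 11.3% lower) and 8.29% (4.4% higher, 3.89% lower) of all genes were. For footprints per RNA read, 3 members were counted in the Ngn1-GFP KO (Ppp1r15a higher, Psat1 and Atf3 lower) and 1 in the OMP-GFP KO (Atf3 lower), against 18.2% (8.04% higher, 10.2% lower) and 16.2% (7.13% higher, 9.08% lower) of all genes. In the difference between effects, which uses all 4 footprint columns, 3 members were counted (Psat1 higher, Atf3 and Trib3 lower), against 22.3% of all genes (11.5% higher, 10.8% lower).

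Markers of other cells moved with both KO comparisons. In the Ngn1-GFP KO all 10 sustentacular markers had at least 2-fold lower footprints, and 9 of 10 lower RNA (summed RNA 1080 and 182 CPM), while 3 of 9 tested gland markers had higher footprints. The gland list did not move one way in RNA: of 9 tested, 2 were higher and 3 lower with a median of -0.54, although its summed RNA went from 77.2 to 151 CPM. In the OMP-GFP KO 7 of 9 tested sustentacular markers and 7 of 8 gland markers had higher footprints, with summed RNA of 85.1 and 344 CPM for the first list and 16.2 and 113 for the second. Vessel and connective tissue markers had RNA ratios above 0 for 8 of 8 genes in the Ngn1-GFP KO (2 counted as higher, median 0.71), and their summed footprints were 1867, 2219, 215 and 183 CPM with Kdr and Lum at 0 in the last column. Immune, horizontal basal and glial markers summed to at most 116 footprint CPM per list in any column. The part of these cells in the values of the stress genes was not tested.

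**Figure D3:**
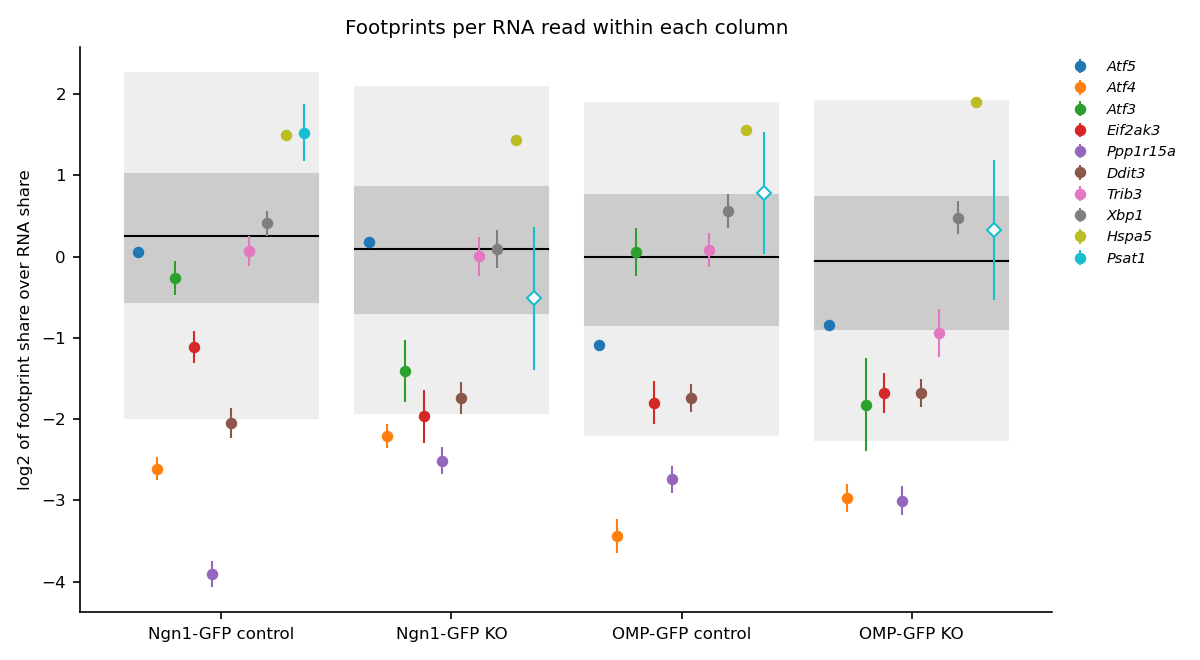
Footprints per RNA read within each of the 4 columns, as log2 of a gene's share of footprints over its share of RNA reads, with approximate 95% counting intervals. Grey boxes give the middle 50% (dark) and 90% (light) of all genes with at least 20 counts in both assays, black lines their median, and open diamonds mark Psat1 where it had under 20 footprints. Ppp1r15a and Atf4 lie below the light box in each column, between -3.91 and -2.20, and Hspa5 lies above the dark box in each, between 1.44 and 1.90.

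Within a column, the members differed widely in footprints per RNA read, and the same members held the lowest places throughout. Atf4 and Ppp1r15a, known for inhibitory upstream reading frames, stood near the bottom of all genes in each column. Only coding sequences were counted, so the part of upstream frames in these values was not tested. The log2 share ratio of Atf4 was -2.61, -2.20, -3.44 and -2.97, at percentiles 2.22, 3.02, 0.58 and 1.76 of 11600, 10382, 9861 and 9827 genes. That of Ppp1r15a was -3.91, -2.51, -2.74 and -3.00, at percentiles 0.53, 1.88, 2.11 and 1.71. Ddit3, also under an inhibitory upstream frame, ranged from -2.05 to -1.68 and from percentile 4.63 to 10.6. Eif2ak3 had few footprints for its RNA too, from -1.97 to -1.11 and from percentile 4.67 to 14.2.

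Atf5, the other member known for upstream reading frames, stood far higher than Atf4 on this scale. Its log2 share ratio was 0.06 and 0.19 in the Ngn1-GFP control and KO, at percentiles 43.1 and 53.3, and -1.09 and -0.83 in the OMP-GFP control and KO, at percentiles 19.6 and 26.3. Hspa5 stood at the other end, at 1.49, 1.44, 1.56 and 1.90 and percentiles 85.9 to 94.8. Xbp1 (0.09 to 0.56) and Trib3 (-0.94 to 0.08) lay nearer the middle of all genes. Atf3 changed its place most among members with at least 20 footprints in each column, from percentiles 32.7 and 51.7 in the Ngn1-GFP and OMP-GFP controls to 10.9 and 8.92 in the KO columns.

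The OMP-GFP and Ngn1-GFP sorts were compared next within each genotype. They are mixtures that differ in neuronal stage and in other cells, as the markers above show. Atf5 had more RNA and fewer footprints in the OMP-GFP than in the Ngn1-GFP sort of both genotypes. Its RNA ratio was 0.57 [0.56, 0.59] in controls and 0.43 [0.41, 0.45] in KO mice, and its footprint ratio -0.41 [-0.47, -0.34] and -0.49 [-0.54, -0.43]. Footprints per Atf5 RNA read were lower by 0.98 and 0.91 on the log2 scale (-0.98 [-1.04, -0.91] and -0.91 [-0.97, -0.86]), 1.97-fold and 1.88-fold, at percentiles 11.2 and 15.9 of all genes. By library size alone both were just past 2-fold (-1.15 and -1.02), and in the authors' deposited efficiency column the control ratio was -1.16. The comparison in controls and that in KO mice share no column, but each shares its columns with the KO comparisons above.

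Atf4 lay the same way, with footprint ratios of -0.59 [-0.85, -0.33] and -0.62 [-0.85, -0.39], RNA ratios of 0.07 [0.04, 0.09] and 0.04 [0.01, 0.07], and footprints per RNA read lower by 0.66 on the log2 scale in both genotypes (-0.66 [-0.91, -0.40] and -0.66 [-0.89, -0.43]). The chaperone Hspa5 lay the other way, with footprint ratios of 0.22 [0.16, 0.27] and 0.43 [0.38, 0.48] and level or slightly lower RNA (-0.02 [-0.05, 0.00] and -0.14 [-0.17, -0.11]). Ddit3 footprints were 1.73-fold higher in OMP-GFP cells of controls (0.79 [0.54, 1.05]), and in KO mice the ratio was 0.16 [-0.10, 0.43]. Atf3 RNA was lower in OMP-GFP cells of both genotypes (-0.83 [-0.93, -0.72] and -1.10 [-1.24, -0.96]), as was Psat1 RNA (-0.99 [-1.34, -0.67] and -0.92 [-1.36, -0.49]).

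The other members had footprint ratios that turned between genotypes. Eif2ak3 footprints had -0.36 [-0.70, -0.02] in controls and 0.64 [0.23, 1.05] in KO mice, and Trib3 footprints 0.32 [0.04, 0.59] and -0.85 [-1.23, -0.47]. Xbp1 footprints had -0.16 [-0.41, 0.09], an interval that spans 0, and 0.37 [0.08, 0.66]. Ppp1r15a footprints had 0.39 [0.16, 0.62] and -0.45 [-0.70, -0.21], with RNA ratios of -0.94 [-0.97, -0.92] and -0.07 [-0.10, -0.03], the first of which again uses the RNA column that stood apart. At least 2-fold apart were Psat1 footprints in controls (-1.57 [-2.43, -0.79]), Atf3 footprints in KO mice (-1.40 [-2.14, -0.70]), Atf3 RNA in KO mice, and footprints per Ppp1r15a RNA read in controls (1.34 [1.11, 1.56]). That is 1 of 10 members in each of these comparisons, and the share of all genes was larger in each. For footprints it was 23.5% in controls (6.11% higher, 17.4% lower) and 29.6% in KO mice (11.3% higher, 18.4% lower). For RNA in KO mice it was 21.2% (4.77% higher, 16.4% lower), and for footprints per RNA read in controls 14.5% (5.98% higher, 8.54% lower). For RNA in controls and for footprints per RNA read in KO mice 0 members were counted, against 26.8% (3.49% higher, 23.3% lower) and 22.9% (9.78% higher, 13.2% lower) of all genes.

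**Figure D4:**
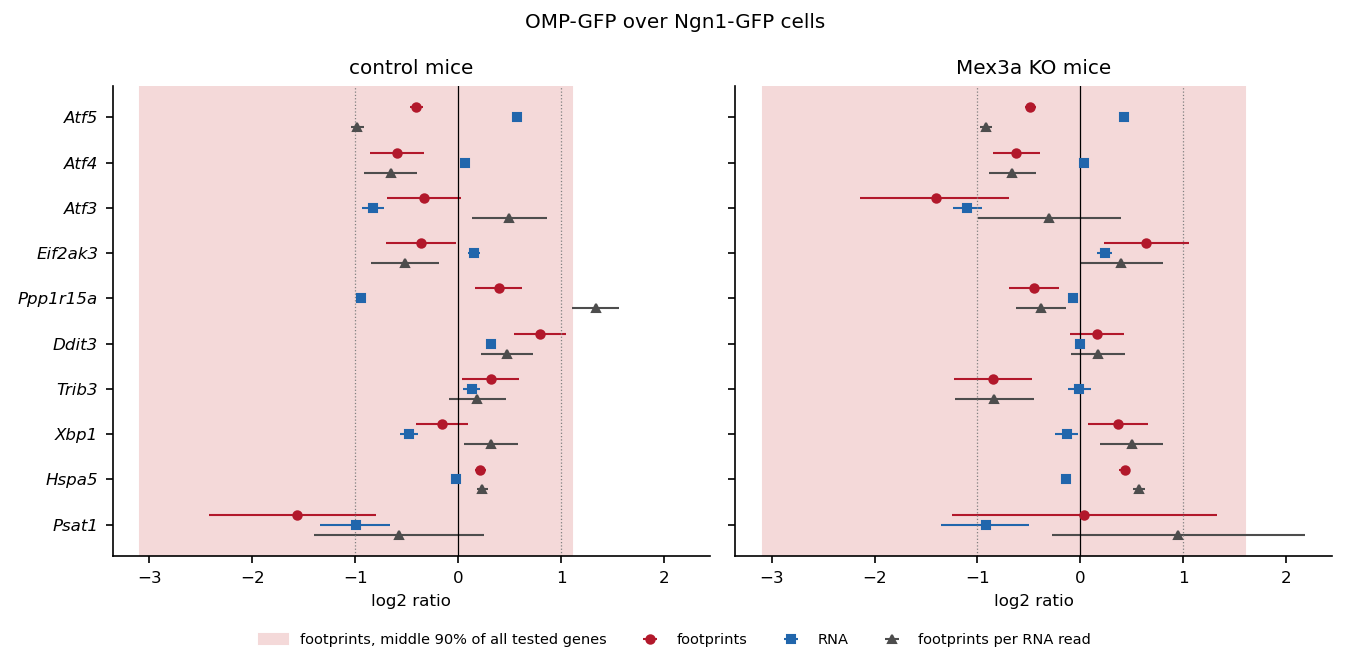
Log2 ratios of OMP-GFP over Ngn1-GFP cells for the 10 genes in control (left) and Mex3a KO mice (right), with symbols, intervals, dotted lines and band as in the plot of KO over control. For Atf5 the RNA square lies to the right of 0 (0.57 and 0.43) and the footprint circle to the left (-0.41 and -0.49) in both panels.

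The gene whose levels over the 8 columns were most like those of Atf5 was Tppp3, which binds tubulin, followed by Ap2a2, a subunit of the AP-2 endocytic adaptor, and Osbpl6, of the oxysterol-binding family. Their root mean square differences from Atf5 were 0.14, 0.16 and 0.16 on the log2 scale after each gene was centred on its own mean over the columns, among 6642 genes with at least 50 counts in every column. The footprint and RNA columns belong to the same 4 groups, and the likeness is a description. On this measure, which counts footprints per RNA read as part of the pattern, Atf4 ranked 6268 of 6642.

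Other genes of the stress pathways are given next by list, to be read against the 17.3% and 15.7% of all genes counted as 2-fold apart in footprints in the Ngn1-GFP and OMP-GFP KO. Among 30 Atf4 target genes, 2 of 27 tested had lower and 0 higher footprints in the Ngn1-GFP KO (median -0.03), and 0 of 26 lower and 1 higher in the OMP-GFP KO (median -0.02). The 2 lower genes were Cth, of cysteine synthesis (129 and 28 footprints, -1.58 [-2.23, -0.98]), and the cationic amino acid transporter Slc7a3 (101 and 28, -1.23 [-1.89, -0.61]). Psph, the last enzyme of serine synthesis, was the higher gene (30 and 71, 1.12 [0.49, 1.79]), with an RNA ratio of -0.13. In RNA, 1 of 30 tested targets was higher and 1 lower in the Ngn1-GFP KO (median 0.03). In the OMP-GFP KO 2 were higher and 0 lower (median -0.003). Over all genes 15.7% and 8.29% were counted in either direction in RNA. Footprints of Atf4 itself had ratios of 0.53 and 0.50 in the same comparisons.

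Among 14 genes that act on eIF2, 0 of 13 tested had footprints 2-fold apart in the Ngn1-GFP KO (median -0.13). In the OMP-GFP KO 1 of 14 was higher and 2 were lower (median 0.22). The amino acid sensing kinase Eif2ak4 went from 4 to 18 footprints (2.05 [0.45, 4.07]), the eIF2 subunit Eif2s3x from 68 to 25 (-1.56 [-2.29, -0.88]) and the exchange factor subunit Eif2b5 from 158 to 83 (-1.05 [-1.45, -0.66]), with RNA ratios of 0.56, 0.23 and -0.17. Of 14 genes of the Ire1 and Xbp1 branch, such as Dnajb9 and Edem1, and 9 of the Atf6 branch, none of 13 and 9 tested were 2-fold apart in footprints in either population, with medians of 0.05 and -0.06 for the first list and -0.07 and 0.09 for the second. Of 15 ER folding genes, 11 had footprint ratios above 0 in the Ngn1-GFP KO and 10 in the OMP-GFP KO (medians 0.10 and 0.24), and 14 of 15 had RNA ratios above 0 in each (medians 0.22 and 0.11). Over all genes 49.8% and 50.3% of footprint ratios and 52.6% and 49.7% of RNA ratios lay above 0. Only Ero1lb, an ER oxidase, reached 2-fold in this list (43 and 94 footprints in OMP-GFP cells, 1.01 [0.47, 1.56]).

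Of 14 genes of the Atf5 feedback and receptor choice, including Adcy3, Kdm1a and Lhx2, none was 2-fold apart in footprints or RNA between KO and control in either population, with footprint medians of 0.09 and -0.06. Immediate early genes, which tissue dissociation and odour activity induce, were listed together with heat shock genes such as Hspa1a. This list had footprint medians of -0.14 and -0.59. In the Ngn1-GFP KO 1 of 15 tested was 2-fold lower, where 10.8% of all genes were, the nuclear receptor Nr4a1 (203 and 48 footprints, -1.46 [-1.94, -0.998]). In the OMP-GFP KO 4 of 15 were lower, where 8.54% of all genes were, among them the mRNA decay factor Zfp36 (47 and 6, -3.09 [-4.61, -1.86]), Ier3 (18 and 4, -2.29 [-4.31, -0.69]) and the transcription factor Egr1 (473 and 140, -1.88 [-2.16, -1.60]). Their RNA ratios were -0.16, 0.21 and -0.40. In RNA, 2 of 17 list genes were lower and 0 higher in the Ngn1-GFP KO (median -0.15), where 11.3% of all genes were lower. In the OMP-GFP KO 0 were lower and 1 higher (median -0.04), where 3.89% and 4.4% of all genes were. Atf3, itself induced as an immediate early gene, had lower footprints in both KO columns (-1.09 and -2.16). The part of cell preparation in its values was not tested.

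**Figure D5:**
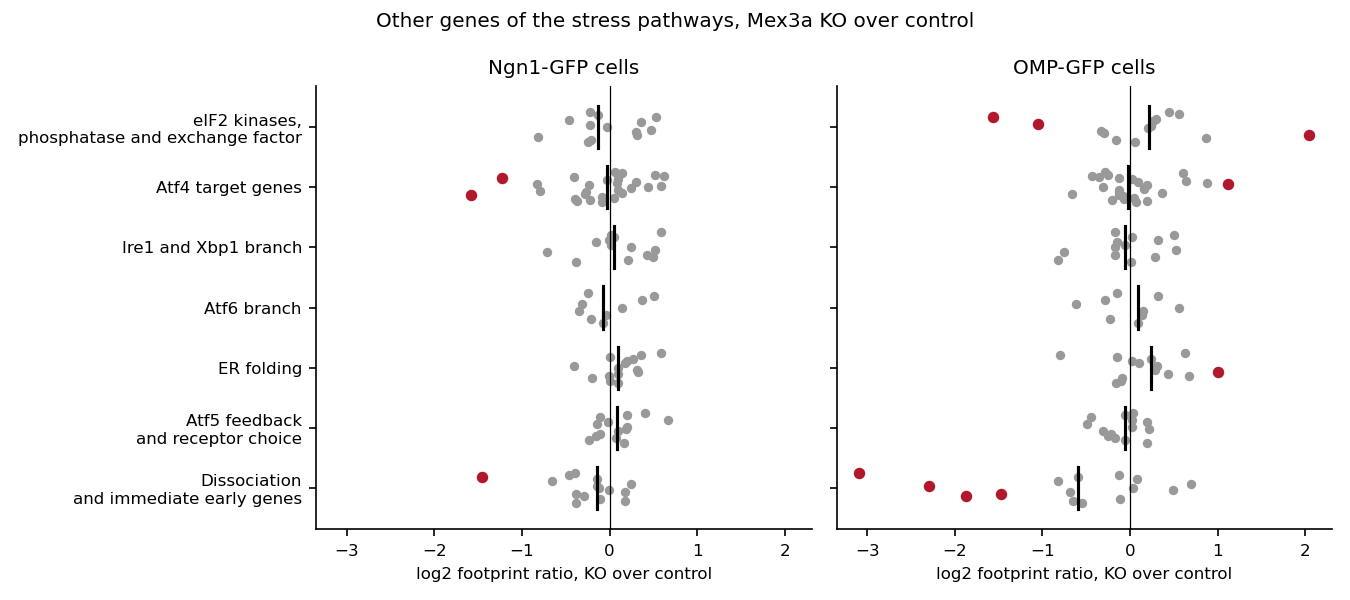
Log2 footprint ratios of Mex3a KO over control for the tested genes of 7 lists of related genes, in Ngn1-GFP (left) and OMP-GFP cells (right). Each point is a gene, and red points are at least 2-fold apart with a counting interval that excludes 1. Bars are list medians, which lie between -0.14 and 0.24 except for dissociation and immediate early genes in OMP-GFP cells (-0.59).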

How the data were processed

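Footprints and RNA were read from the deposited table of 22553 genes with 24 value columns, 1 per group and measure. Per the file headers, the deposited values are footprint and RNA counts over coding sequences, the coding length, the authors' translational efficiency ratio, footprint RPKM and RNA TPM. Tools named in the submitters' processing notes are STAR, cutadapt and FastQC, and the build is mm10, with roles and versions not given in the sources used here. How the 2 libraries of a group were combined is not stated. The deposited RPKM and TPM were recomputed from the counts without a difference beyond rounding, and the authors' ratio equals footprint share over RNA share times 1.34, 1.34, 1.33 and 1.38 in the 4 groups.

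Counts were scaled by TMM in edgeR 4.0.16 (R 4.3.3), and filterByExpr with a minimum count of 10 kept 13479 genes for footprints and 16388 for input RNA. Python 3.11.15 gave the ratios (scipy 1.17.1, pandas 2.3.3, numpy 2.4.6) and the figures (matplotlib 3.10.9). Since each group has 1 column, no test was run. A gene was counted as higher or lower if at least 2-fold apart with a 95% counting interval that excluded 1 and its columns together held 20 or more counts. Intervals are exact conditional binomial for footprints and RNA and approximate for footprints per RNA read and for the difference between effects. The functions were tested on simulated data. In the columns 3 footprints were worth 0.609 to 0.938 CPM. The alternatives scaled by library size alone, by DESeq2 1.42.0, or by TMM after leaving out either the genes at least 8-fold apart in 1 column or the receptor, ribosomal protein and mitochondrial genes; others were no filter, a minimum of 50 counts in each column compared, and the authors' ratio.

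The members, lists and counting rule were chosen with earlier results of these data known. Named genes are all 10 members, Mex3a, up to 3 genes of each of 7 lists with the largest footprint ratio among those counted, and the 3 genes most like Atf5. 1 list symbol (Mars1) was matched by its synonym. Gene positions and promoters are from RefSeq GRCm38.p6. Depth limits Psat1 most. The name of the Cre driver and the value of 1 precursor marker are not reported here.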

Additional observations from a re-analysis of the deposited data

Results flagged for a closer look

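Ppp1r15a footprints lay on opposite sides of 0 in both populations, with counting intervals that excluded 0 in each: 0.51 in the Ngn1-GFP KO and -0.34 in the OMP-GFP KO, a difference of -0.85 on the log2 scale. The difference was not tested, since each group has 1 column.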

How the results depend on the processing

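No paired analysis was possible because the deposited columns hold 1 value per group and carry no replicate number, and for the same reason no replicate could be left out. No 2-fold member ratio turned its sign under any alternative, and of 796 member ratios recomputed 755 stayed within their counting interval and 41 moved past it. Of 85 recomputed summaries, nearly all of them counts of members, 69 stayed within 1.5-fold and 16, all counts, moved by over 1.5-fold. With a minimum of 50 counts in each column compared, members counted went from 2 to 1 for footprints in each KO comparison, from 1 to 0 for footprints between populations in controls and in KO mice, from 1 to 0 for footprints per RNA read in the OMP-GFP KO and from 3 to 1 for the difference between effects, since Psat1 and Atf3 no longer had enough counts. By library size alone, members counted went from 1 to 0 for RNA in the Ngn1-GFP KO (Ppp1r15a at -0.96), from 1 to 2 for footprints between populations in KO mice (Trib3 at -1.07), from 0 to 1 and from 1 to 2 for RNA between populations in controls and in KO mice (Psat1 at -1.04 in both), from 1 to 2 for footprints per RNA read in the OMP-GFP KO (Trib3 at -1.02), and from 1 to 2 and from 0 to 1 for footprints per RNA read between populations (Atf5). Psat1 RNA in controls was also counted with DESeq2 size factors (-1.0001) and without genes apart in 1 column (-1.01), 1 member each, and Atf5 in controls with the authors' ratio, 2 members in all. Signs that turned belong to ratios near 0, among them Hspa5 and Trib3 footprints per RNA read in the Ngn1-GFP KO, at -0.05 and -0.06 by library size alone and by the authors' ratio. Library size alone moved the median of all genes by -0.21 and -0.23 for footprints between populations in controls and KO mice, by -0.12 for RNA in KO mice, and for footprints per RNA read by -0.12 in the Ngn1-GFP KO, -0.17 in controls and -0.11 in KO mice. It split the genes counted between populations into 461 higher and 2605 lower for footprints in controls (757 and 2160 by TMM), 923 and 2637 in KO mice (1325 and 2162), and 570 and 1489 for footprints per RNA read in controls (740 and 1057), where no filter gave 1395 and 1176. With a minimum of 50 counts, genes counted over the whole table fell. For footprints 138 were higher and 122 lower in the Ngn1-GFP KO (815 and 1361 before), 139 and 133 in the OMP-GFP KO (795 and 953), 325 and 243 between populations in controls (757 and 2160) and 371 and 358 in KO mice (1325 and 2162), so the larger side turned in all 4. For RNA in the same order the counts were 334 and 526 (728 and 1827), 135 and 64 (632 and 558), 381 and 1080 (563 and 3770), and 340 and 729 (719 and 2472). For footprints per RNA read they were 226 and 144 (1007 and 1272, where the larger side also turned), 155 and 180 (793 and 1010), 149 and 177 (740 and 1057), and 225 and 331 (1146 and 1542). For the difference between effects they were 263 and 331 (1246 and 1169), turned as well.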

Other observations

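When each gene was centred within footprints and within RNA separately, a choice made after the data were seen, so that only the pattern across the 4 groups counts, Pdia5 was the gene most like Atf5, with a root mean square difference of 0.11 on the log2 scale among 6642 genes. Pdia5 encodes an ER protein disulfide isomerase and had 120, 106, 70 and 90 footprints, with the sorts in the order used above. The pyrophosphate transporter gene Ank and Tppp3 followed, at 0.13 and 0.14. Atf4 ranked 47 on this measure, with 0.21, while Hspa5 ranked 2340, Ddit3 3874, Eif2ak3 4630, Xbp1 5143, Trib3 5842 and Ppp1r15a 6093. Atf3 and Psat1 had under 50 counts in at least 1 column and were not ranked.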
